A study of Mus musculus with 16 samples.

Results

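Cells of a mouse alveolar rhabdomyosarcoma (aRMS) tumor culture that had received an siRNA against eYFP and were sorted at a DNA content of 3N, labelled S phase, were compared with cells of the same treatment sorted at 2N, labelled G1/G0. The comparison took its members by label alone, and used 5 of the 16 arrays of the series: the 3N arrays of experiments 1 and 2 and the 2N arrays of experiments 1, 2 and 3. Cells of all groups carried the conditional alleles Myf6Cre, Pax3:Foxo1a and p53, so that recombination had been driven by Cre from the Myf6 locus in the muscle lineage, and they were grown in DMEM with serum. The eYFP siRNA was given at 10 nM with lipofectamine2000. It targets the second cistron of the mRNA that encodes the Pax3:Foxo1a fusion protein, and cells that received it are called knockdown cells. The control group used below received a control siRNA and was sorted in the same way (2 arrays at 3N and 3 at 2N). The knockdown rests on 1 siRNA sequence in cells of 1 tumor model. The study's QPCR on sorted knockdown cells used the primary culture U23674, but no source used here names the culture on the arrays, the hours from transfection to sorting or the slides. The methods call the array experiments independent without saying whether each was a separate culture, and p-values measure the spread between these arrays.

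A cell that leaves G1 first makes the cyclin E, Cdc6 and Mcm proteins that license and fire replication origins, largely under E2F transcription factors held in check by the retinoblastoma family. Polymerases, clamp loaders, nucleotide synthesis enzymes and repair factors are needed while DNA is copied. The genes for mitotic kinases, the kinetochore and the spindle are kept silent in G1 by the DREAM complex and are switched on later by B-Myb and FoxM1, often through a short promoter element called the CHR. In bulk RNA of a sorted fraction, fewer cells that make a transcript and less of it per cell cannot be told apart.

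The arrays were Illumina MouseRef-8 v2 BeadChips, and values are normalized intensities on a log2 scale, so that a step of 1 is a 2-fold change. On the 5 arrays 12760 to 13135 of 25697 probes were detected, and arrays of 1 group correlated at 0.9905 to 0.9929. After a filter on detection 9306 genes were tested, each by its brightest probe. The Foxo1 probe, which may read native Foxo1 and the fusion alike since its position is not given, lay between 8.23 and 8.69 on the 5 knockdown arrays and between 9.24 and 9.49 on the 5 control arrays of 2N and 3N cells. Foxo1 was thus lower on every knockdown array, and between 3N and 2N knockdown cells its log2 change was 0.07 ± 0.15 (SE, adjusted p = 0.863). Of 54 markers of immune, endothelial, erythroid, adipocyte, and epithelial and neural cells with a probe, 14 passed the filter (Cd3e and Cd14, Eng, Epor, Pparg and Lpl, and 8 epithelial and neural genes) and 0 passed the test between 3N and 2N cells. With the experiment number as a block 1 did, the epithelial gene Cldn4 (0.68, adjusted p = 0.0229). Among the muscle markers, Acta1 (12.38 ± 0.41 in 2N cells, SD, n = 3), Actc1 and Des passed the filter, whereas Myod1, Myf6 and Mef2c did not.

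Of the 9306 genes, 351 were higher in 3N cells (3.77% of those tested) and 217 were lower (2.33%) at an adjusted p under 0.05 in limma with Benjamini-Hochberg correction. All 351 and all 217 changed in the same direction in experiment 1 and in experiment 2, and for none of them did the 3N and 2N arrays overlap. The calls were made from these same arrays, so this agreement follows largely from the selection and is no separate evidence. Among all genes tested 69.95% had the same sign in both experiments, 16.51% had both 3N arrays above all 2N arrays, and 20.47% had them below. The higher genes also changed more: 107 genes rose at least 2-fold in each experiment and 9 fell as far in each. The median log2 change over all genes was -0.03. Higher genes made up 61.8% of the calls, but 75.5% when arrays were scaled to a common median in place of quantile normalization, which left 351 higher and 114 lower genes. With the experiment number as a block 500 genes were higher and 521 lower. A fit on the 5 arrays alone, without the spread of the other groups, gave 226 higher and 71 lower genes. Leaving out single arrays gave 192 to 328 higher and 36 to 186 lower genes, with the fewest in both directions without the 3N array of experiment 2.

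**Figure D1:**
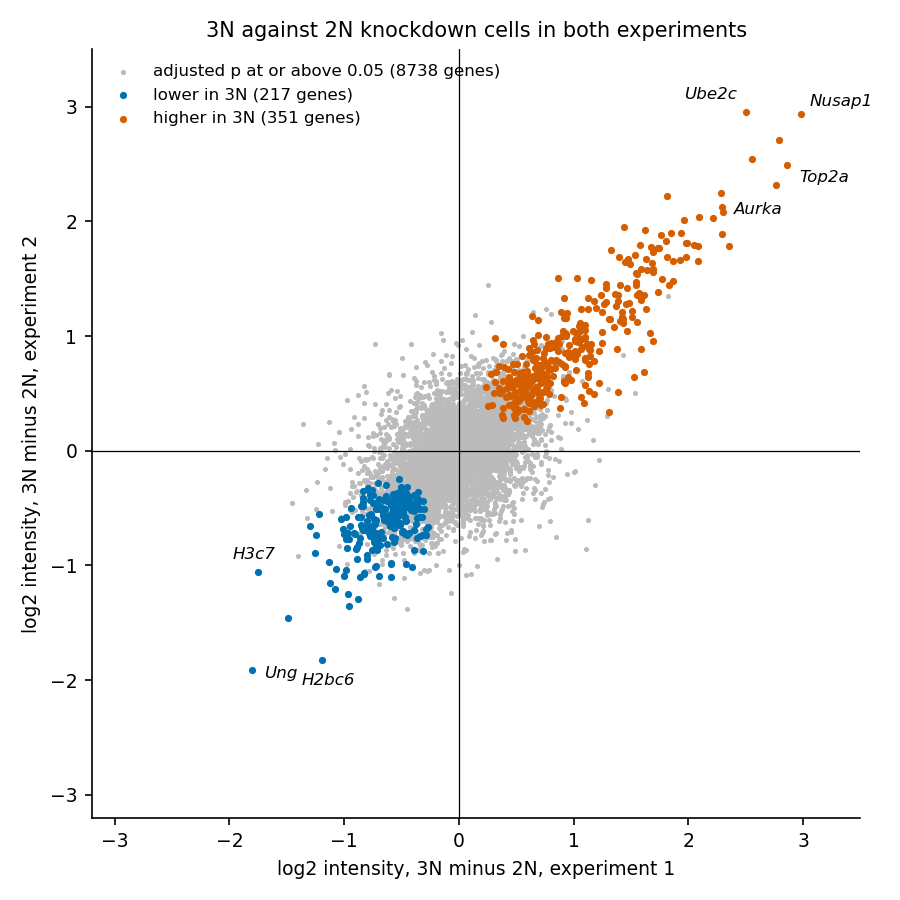
Log2 difference between the 3N and the 2N knockdown array in experiment 1 (x axis) and in experiment 2 (y axis) for each of 9306 genes. The 351 higher (orange) and 217 lower (blue) genes lie in the quadrants where both experiments have the same sign, and Nusap1 and Ung lie at the ends.

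Genes of the mitotic machinery made up the largest rises. Nusap1, a microtubule-binding protein of the spindle, was at 9.15, 9.15 and 9.61 on the 2N arrays and at 12.13 and 12.08 on the 3N arrays. Top2a, the topoisomerase that untangles sister chromatids, was at 9.50, 9.83 and 9.81 in 2N cells and at 12.36 and 12.31 in 3N cells. Both genes were thus far apart between the fractions, with replicate arrays of a fraction within 0.5 of each other, and they rose 6.98-fold (log2 change 2.80 ± 0.18, adjusted p = 2.55e-07) and 6.16-fold (2.62 ± 0.13, adjusted p = 3.89e-08). The other detected Nusap1 probes gave log2 changes of 2.33 and 0.87. Depdc1b was not above background on any 2N array (5.23, 5.44 and 5.32) and at 8.02 and 8.16 on the 3N arrays. In the main run this was a rise of at least 5.33-fold with the detection limit set in place of the 2N level. Over the alternative runs given below, the log2 change of Depdc1b ran from 1.47 to 2.82.

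Of 23 genes for mitotic entry kinases and cyclins 19 rose and none fell, with a median log2 change of 1.57. Cdk1, the kinase that drives entry into mitosis, was at 10.12, 10.13 and 10.40 in 2N and at 12.22 and 12.17 in 3N cells (3.93-fold, adjusted p = 1.5e-07). Its second probe gave a smaller change of 0.75. Aurka, the spindle pole kinase, rose 4.49-fold and Incenp, the scaffold of the chromosomal passenger complex, 3.77-fold. Foxm1, the transcription factor of late cell cycle genes, changed by 1.49 on the log2 scale. Ccna2, cyclin A, varied between the 2N arrays (6.52, 7.52 and 7.73) and was at 8.34 and 8.87 in 3N cells, so that its change of 1.35 ± 0.38 did not pass (adjusted p = 0.053). With the experiment number as a block Ccna2 passed, with a change of 1.57 (adjusted p = 0.002).

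Spindle motors, midzone and cytokinesis genes rose in 22 of 26 cases, kinetochore and spindle checkpoint genes in 24 of 28, and condensin, topoisomerase II and cohesin genes in 10 of 21, with none lower. Their median log2 changes were 1.56, 1.08 and 0.35, the last of which was 0.63 without the 3N array of experiment 1. Kif11, the motor that pushes spindle poles apart, rose 5.5-fold, from 8.09, 8.16 and 8.39 to 10.64 and 10.70. Prc1, which bundles microtubules at the midzone, rose 5.2-fold and Spc25, a subunit of the Ndc80 kinetochore complex, 4.53-fold. Cdca2 and Ckap2l, with roles on mitotic chromosomes and at the spindle, rose 4.07-fold and 4.05-fold. Esco2, which acetylates cohesin during replication, rose 4.2-fold and was lower again in 4N cells (4N minus 3N, -0.70, adjusted p = 0.0138). Of the 21 genes for the anaphase-promoting complex and SCF ligases 3 rose, and these were the activators Cdc20 and Fzr1 and the ubiquitin-conjugating enzyme Ube2c. Ube2c varied more than the others, at 6.71, 7.10 and 7.93 in 2N cells and at 9.21 and 10.06 in 3N cells. Its 5.24-fold rise (adjusted p = 0.00371) lost its call without the 3N array of experiment 2 (adjusted p = 0.0907).

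The 6 genes that the study named for checkpoint adaptation, a list chosen on arrays of the same series and so no independent evidence of direction, were all higher in 3N cells. Plk1, the polo-like kinase, was at 9.88, 9.70 and 9.88 in 2N cells and at 11.63 and 11.47 in 3N cells (3.31-fold, adjusted p = 1.24e-07). Haspin, a histone H3 kinase, rose 3.43-fold, Cdc25b, which activates Cdk1, 3.16-fold, Birc5, or survivin, 3.01-fold, Bora, an activator of the Plk1 pathway, 2.98-fold, and H2ax, the histone variant phosphorylated at DNA breaks, 2.07-fold. Of these Cdc25b and Plk1 were higher still in 4N cells, by 1.23 (adjusted p = 0.00523) and 0.48 (adjusted p = 0.0418) on the log2 scale.

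**Figure D2:**
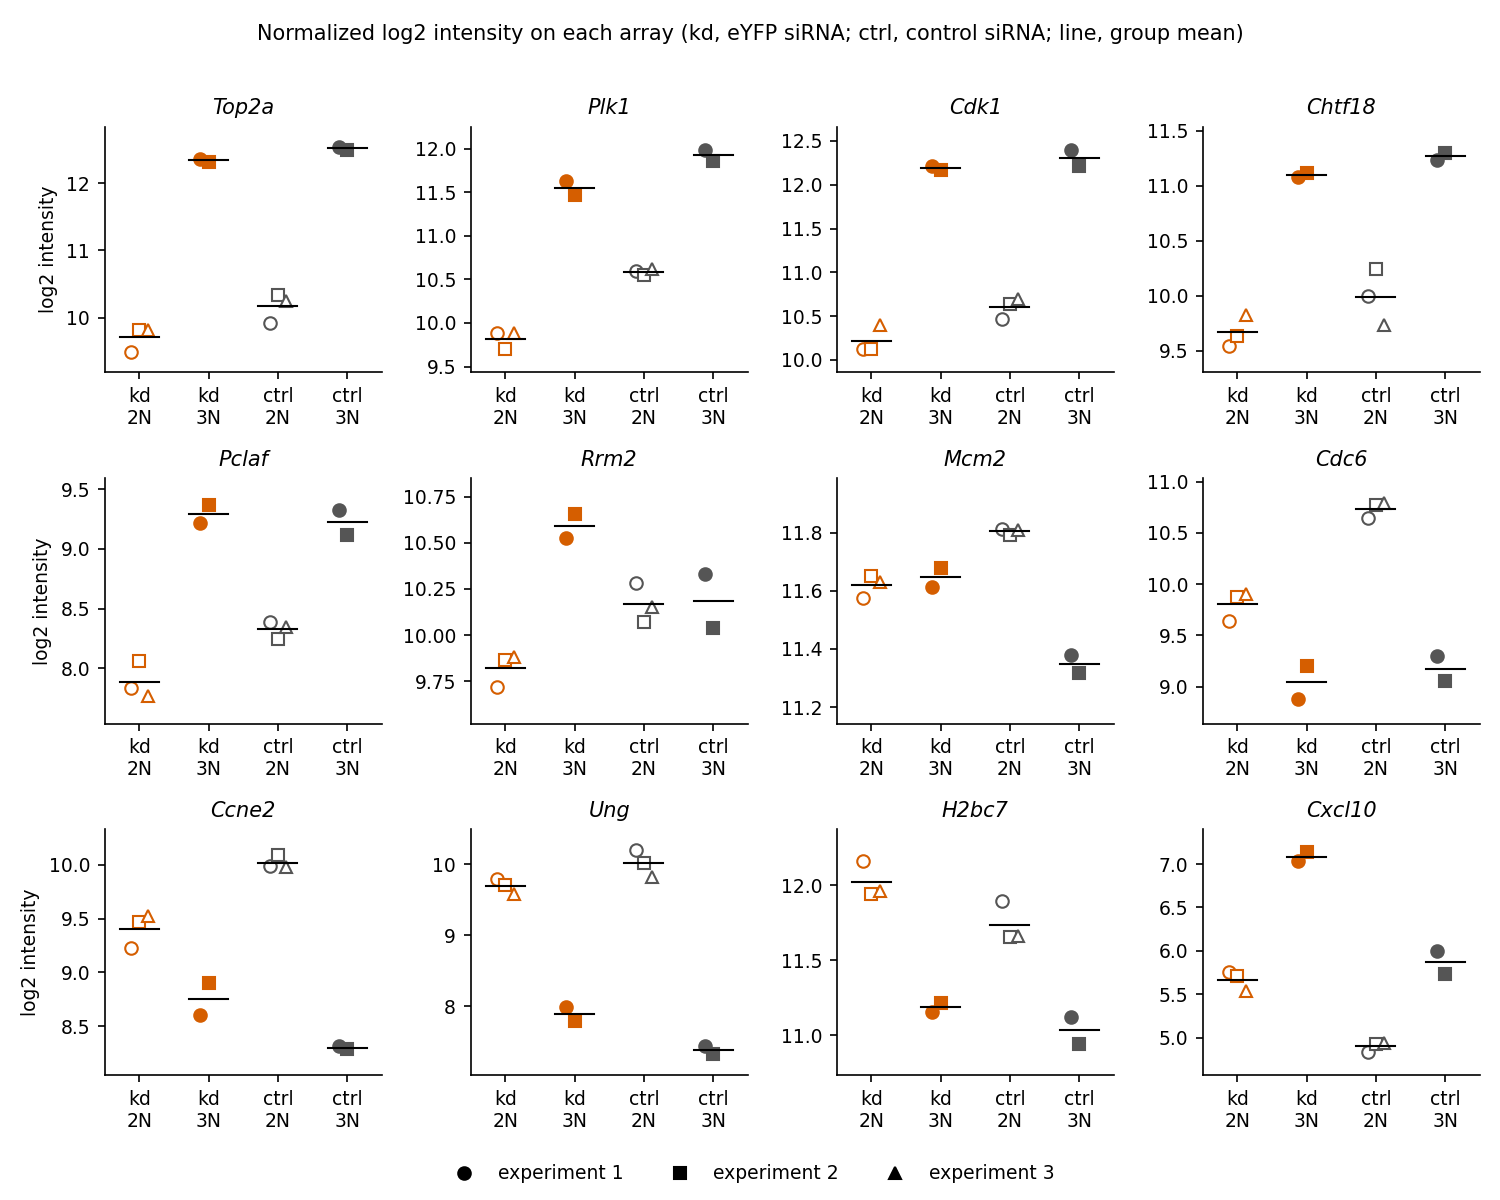
Normalized log2 intensity of 12 genes on each 2N and 3N array, with knockdown cells in orange and control cells in grey, open symbols for 2N and filled symbols for 3N, a symbol shape for each experiment and a line at the group mean. Top2a, Plk1 and Cdk1 are far higher in 3N cells, Mcm2 lies at the same level in both knockdown fractions, and Ccne2, Cdc6 and Ung are lower in 3N cells.

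The promoters of these genes were searched for the CHR (TTTGAA on either strand) and for 4 forms of the E2F site (TTTCCCGC, TTTGGCGC, TTTGCCGC and TTTCGCGC on either strand, of which forms on opposite strands can overlap). RefSeq promoters of mouse build GRCm38.p6 with 250 bases before and 50 after the start were found for 7610 of the 9306 genes tested. A gene was counted if any of its promoters held a match. A CHR match was found for 58.7% of the 63 matched genes of the mitotic entry, kinetochore and spindle lists, for 30.3% of genes higher in 3N cells, for 13.9% of genes lower in 3N cells, for 13.9% of all genes tested and for 20.2% of the 27025 genes in the table (17.9% of its 32851 promoters). An E2F match was found for 26.1% of the 69 matched genes of the replication licensing, fork, nucleotide and chromatin assembly lists and for 9.52% of the mitotic ones. Of the 27 matched replication genes that rose in 3N cells, 18.5% held an E2F match. It was found for 9.06% of genes higher and 6.94% of genes lower in 3N cells, for 4.64% of all genes tested and for 2.6% of the genes in the table (2.26% of its promoters). These are matches of letters and not measured sites. No match of either kind was found for Nusap1, Cdc25b or Birc5, which rose. Gapdh and Mcm2, which did not pass, held 1 CHR match each, and Mcm6, which did not pass, held 3 E2F matches. All promoters printed below hold a match. The 5 promoters below show the arrangement in genes whose values are given in the text, with matches in capitals: chr11:99024140-99024439 on the minus strand for Top2a, chr7:122159185-122159484 on the plus strand for Plk1, chr10:69352863-69353162 on the minus strand for Cdk1, chr9:65890073-65890372 on the plus strand for Pclaf and chr11:98907901-98908200 on the plus strand for Cdc6.
Top2a: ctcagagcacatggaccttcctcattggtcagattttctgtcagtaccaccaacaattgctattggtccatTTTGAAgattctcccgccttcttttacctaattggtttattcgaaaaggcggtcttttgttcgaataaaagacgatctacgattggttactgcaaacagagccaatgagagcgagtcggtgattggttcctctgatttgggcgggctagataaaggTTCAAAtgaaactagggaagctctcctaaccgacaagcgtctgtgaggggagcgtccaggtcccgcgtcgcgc
Plk1: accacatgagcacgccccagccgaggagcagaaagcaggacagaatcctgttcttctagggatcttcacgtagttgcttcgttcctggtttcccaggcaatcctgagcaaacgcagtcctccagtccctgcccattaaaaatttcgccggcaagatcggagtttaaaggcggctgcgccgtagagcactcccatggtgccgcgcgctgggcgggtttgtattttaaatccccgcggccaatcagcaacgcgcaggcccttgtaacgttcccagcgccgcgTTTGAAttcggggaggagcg
Cdk1: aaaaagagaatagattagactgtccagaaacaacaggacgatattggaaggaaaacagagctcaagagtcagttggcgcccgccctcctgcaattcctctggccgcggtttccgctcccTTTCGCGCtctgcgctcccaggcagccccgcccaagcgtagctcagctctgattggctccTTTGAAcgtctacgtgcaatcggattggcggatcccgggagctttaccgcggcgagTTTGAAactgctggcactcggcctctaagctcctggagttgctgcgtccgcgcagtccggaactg
Pclaf: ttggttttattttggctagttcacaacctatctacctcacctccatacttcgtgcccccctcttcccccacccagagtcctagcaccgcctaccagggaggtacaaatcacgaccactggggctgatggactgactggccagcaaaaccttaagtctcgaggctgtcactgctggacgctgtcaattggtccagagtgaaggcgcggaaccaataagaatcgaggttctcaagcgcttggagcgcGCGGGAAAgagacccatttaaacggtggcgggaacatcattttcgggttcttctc
Cdc6: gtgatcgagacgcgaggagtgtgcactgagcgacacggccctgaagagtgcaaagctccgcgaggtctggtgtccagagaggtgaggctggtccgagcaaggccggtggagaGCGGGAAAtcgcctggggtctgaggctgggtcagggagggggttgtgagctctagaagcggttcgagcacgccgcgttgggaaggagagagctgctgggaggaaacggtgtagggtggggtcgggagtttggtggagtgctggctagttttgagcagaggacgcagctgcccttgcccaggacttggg
The capitals mark 2 CHR matches in Top2a (from bases 72 and 228 of the window, the second on the opposite strand), 1 CHR match in Plk1 (from base 281), an E2F match followed by 2 CHR matches in Cdk1 (from bases 120, 180 and 236), and 1 E2F match each in Pclaf (from base 246) and Cdc6 (from base 113), both on the opposite strand. Of these genes Pclaf rose and Cdc6 fell in 3N cells.

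Replication fork genes rose as a smaller step. Of 26 genes for polymerases and the fork 15 rose and none fell, and the median log2 change was 0.55. With 1 of the 2N arrays left out, 12 to 14 rose. The median was 0.579 without the 3N array of experiment 1 and 0.535 without that of experiment 2. Chtf18, a subunit of an alternative clamp loader, was at 9.54, 9.64 and 9.83 in 2N cells and at 11.08 and 11.11 in 3N cells (2.69-fold, adjusted p = 8.62e-06). Pclaf, which binds the sliding clamp Pcna, was at 7.83, 8.06 and 7.76 in 2N cells and at 9.22 and 9.36 in 3N cells (2.65-fold, adjusted p = 1.48e-05). Arrays of the fractions did not overlap for either gene. Pole, the catalytic subunit of the leading strand polymerase, rose 2.05-fold and Rfc5, a subunit of the clamp loader, 1.99-fold. Pcna itself spread widely in both fractions (11.29, 11.78 and 12.09 in 2N cells, 11.11 and 11.93 in 3N cells), and its change of -0.20 ± 0.34 did not pass (adjusted p = 0.82) and was 0.01 with the experiment as a block.

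Licensing and helicase genes were split. Of 23 tested 7 rose and 1 fell, with a median of 0.32, but only 3 rose without the 3N array of experiment 1, 2 without that of experiment 2 and 4 without the 2N array of experiment 2. Cdc45, which joins the Mcm ring to form the active helicase, was at 8.73, 8.96 and 8.87 in 2N cells and at 10.10 and 10.22 in 3N cells (2.47-fold, adjusted p = 9.62e-06), and Dbf4, the activator of the Cdc7 kinase that fires origins, changed by 1.00 ± 0.10. Recql4 and Mcm10, which act in assembling the helicase, rose 1.96-fold and 1.9-fold. Recql4 lost its call without either 3N array (adjusted p of 0.0521 and 0.0554), and Mcm10 without that of experiment 2 (0.0972). The other detected Recql4 probe changed by 0.25 and did not pass. By contrast none of the 6 Mcm ring subunits passed. Mcm2 was at 11.58, 11.65 and 11.63 in 2N cells and at 11.61 and 11.68 in 3N cells, so the fractions overlapped. The log2 changes of Mcm2 to Mcm7 ran from -0.11 (Mcm4) to 0.32 (Mcm5 and Mcm7), with the lowest adjusted p of 0.0661 for Mcm5, which passed with the experiment as a block (0.0423). Cdc6, which loads the Mcm ring at origins, went the other way. It was at 9.64, 9.87 and 9.91 in 2N cells and at 8.88 and 9.20 in 3N cells (-0.76 ± 0.15, adjusted p = 0.00738), but its second, dimmer probe changed by -0.02, and the call was lost with the mean of both probes (adjusted p = 0.23), in experiments 1 and 2 alone (0.0646) and without the 3N array of experiment 1 (0.12).

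Genes of nucleotide supply rose in 4 of 16 cases with none lower (median 0.22). Those that rose were Tk1, thymidine kinase (2.25-fold), Tyms, thymidylate synthase (2.1-fold), and the ribonucleotide reductase subunits Rrm2 (1.7-fold) and Rrm1 (1.55-fold). Of the 4 other Tyms probes 1 gave 1.07 and passed, while 3 gave 0.22, 0.54 and 0.56 and did not. Rrm2 was at 9.72, 9.87 and 9.88 in 2N cells and at 10.52 and 10.65 in 3N cells (adjusted p = 0.00111). The call for Rrm1 was lost without the 3N array of experiment 1 (adjusted p = 0.0821) and on the 5 arrays alone (0.071). Of 15 genes for chromatin assembly 6 rose, led by the chromatin protein Hmgb2 (2.35-fold, adjusted p = 2.42e-05) and the histone chaperone Asf1b (1.00 ± 0.10, adjusted p = 1.68e-05), and 3 of the 15 rose without either 3N array or without the 2N array of experiment 1.

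From 3N to 4N the median change of the replication lists was below 0, whereas that of mitotic entry and spindle genes was above 0. Kinetochore genes and condensin, topoisomerase II and cohesin genes lay slightly below 0, at -0.07 and -0.11. Of the genes tested, 31 rose (0.333%) and 60 fell (0.645%) from 3N to 4N. Among the 26 fork genes 9 were lower in 4N cells (median 4N minus 3N, -0.51) and among the 23 licensing genes 7 (median -0.48), with none higher. Mitotic entry and spindle genes had medians of 0.23 and 0.44, with 4 higher in each list and none lower. Since the 3N arrays enter both differences, a 3N array that lies high would move them in opposite directions.

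**Figure D3:**
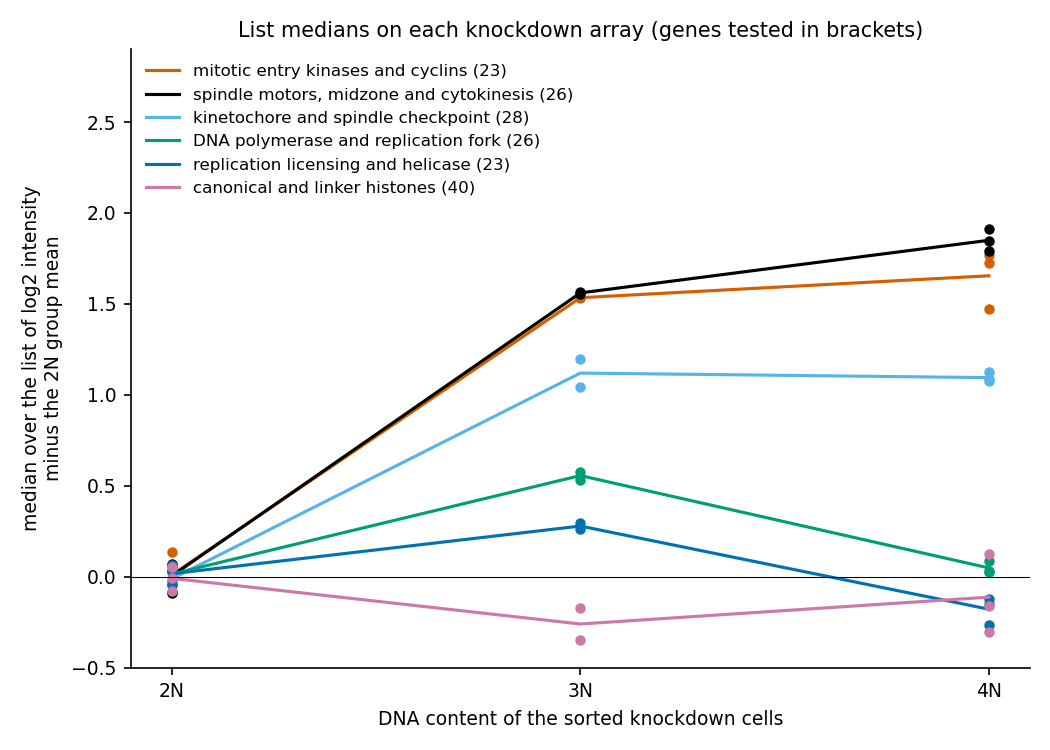
Median over each gene list of the log2 intensity minus the 2N group mean (y axis) on each knockdown array (points) at 2N, 3N and 4N, with lines through the group means. The fork list stands at 0.54 and 0.58 on the 3N arrays and between 0.03 and 0.09 on the 4N arrays, while the spindle list stands at 1.57 and 1.55 at 3N and between 1.79 and 1.91 at 4N.

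Of 39 genes for the damage checkpoint and homologous recombination 18 rose and none fell (median 0.48), against 20 and 1 (Trp53bp1, -0.39, adjusted p = 0.0288) with the experiment as a block. With 1 of the 2N arrays left out, 14 to 18 rose. The median was 0.558 without the 3N array of experiment 1 and 0.455 without that of experiment 2. Among the 39 genes Fancd2, a Fanconi anemia protein that is activated at stalled forks, was at 7.32, 7.56 and 7.50 in 2N cells and at 9.05 and 8.94 in 3N cells (2.9-fold, adjusted p = 4.87e-07). Brip1, a helicase partner of Brca1, rose 2.9-fold, Ube2t, which attaches ubiquitin to Fancd2, 3.00-fold, and Blm, the Bloom helicase, 2.65-fold. Of 20 mismatch and base excision repair genes 4 rose and 1 fell, and none rose without the 3N array of experiment 2. The one that fell, Ung, was the gene with the largest fall of all.

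Ung encodes the glycosylase that removes uracil from DNA. It was at 9.80, 9.71 and 9.58 in 2N cells and at 7.99 and 7.80 in 3N cells, a 3.49-fold fall (-1.80 ± 0.16, adjusted p = 3.7e-06). A second probe gave -1.59, whereas another gave 0.23 and did not pass. In control cells Ung fell further on its brightest probe, with a change of -2.63 ± 0.16. The difference between knockdown and control cells, 0.83 ± 0.22, did not pass in limma (adjusted p = 0.964). Among the cyclins, E2F and retinoblastoma family genes 3 of 21 rose and 1 fell (median 0.03). The E-type cyclin Ccne2 was the one that fell, from 9.23, 9.47 and 9.52 to 8.60 and 8.90 (-0.65 ± 0.12, adjusted p = 0.00442). Its call was lost without the 3N array of experiment 1 (adjusted p = 0.0895), in experiments 1 and 2 alone (0.0573) and on the 5 arrays alone (0.076). Ccne1 changed by -0.31 ± 0.14 and did not pass (adjusted p = 0.241). The genes that rose were Rbl1, the pocket protein p107 (2.75-fold), Lin54, the subunit of DREAM that binds the CHR (2.09-fold), and Mybl2, or B-Myb (1.9-fold, adjusted p = 0.0125). The call for Mybl2 was lost on the 5 arrays alone (0.0518), and when either the 3N array of experiment 2 (0.186) or the 2N array of experiment 1 (0.0542) was left out.

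The markers set for the S phase label were thus mixed. Of the Mcm genes, Cdc6, Pcna, Rrm2, Ccne1, Ccne2 and Ccna2, only Rrm2 rose, Cdc6 and Ccne2 fell, and the remainder did not pass. Of the markers set for G2/M, Plk1, Aurka, Cdc20 and Nusap1 all rose, Ccnb2 did not pass the detection filter and Cenpf was not analysed here. The fraction is therefore called by its DNA content. No source used here gives the width of the 3N gate, and the part of neighbouring fractions in these values was not tested.

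Canonical and linker histone genes fell in 10 of 40 cases and rose in none (median -0.25). H2bc7 was at 12.16, 11.94 and 11.96 in 2N cells and at 11.16 and 11.22 in 3N cells (-0.83 ± 0.12, adjusted p = 0.000347). H2bc4 changed by -0.84 ± 0.13. All that fell were H2B genes except H3c7 and H4c8. Without the 3N array of experiment 2 the number that fell was 5. With the experiment as a block 11 fell, and H3c13 and H3c14 rose (0.44 and 0.47, adjusted p of 0.00801 and 0.0229). The largest histone change was that of H3c7 (-1.80 ± 0.38, adjusted p = 0.0112), which was at 7.04, 6.96 and 8.19 in 2N cells and at 5.28 and 5.90 in 3N cells, and was detected on 1 of the 3N arrays only. It lost its call without the 3N array of experiment 1 (adjusted p = 0.136) and on the 5 arrays alone (0.0694). Histone genes are near-identical copies, so a probe may read several of them. Most of their mRNAs in cycling cells lack the poly(A) tail by which the arrays' target was amplified, and its part in these values was not tested.

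The other large falls came from genes of varied roles. Ovgp1, an oviductal glycoprotein, was at 7.07, 7.11 and 7.75 in 2N cells and at 5.58 and 5.65 in 3N cells, near the detection limit (-1.69 ± 0.25, adjusted p = 0.000642). Ogn, the matrix proteoglycan osteoglycin, was at 10.56, 10.60 and 10.24 in 2N cells and at 9.48 and 9.39 in 3N cells (-1.03 ± 0.14, adjusted p = 0.000326). In control cells Ogn was far lower, at 6.31, 6.53 and 6.76 in 2N and at 6.16 and 6.17 in 3N cells. Its change there, -0.37 ± 0.14, did not pass in limma (adjusted p = 0.178). Ppp1r26, a regulatory subunit of protein phosphatase 1, fell 2.1-fold and the small GTPase Rab43 2.04-fold. Tnip2, an inhibitor of NF-kappaB signalling, changed by -1.13 on its brightest probe and by 0.03 on the other. Tha1, threonine aldolase, was below background on both 3N arrays. In the main run it was at least 2.05-fold lower than in 2N cells (adjusted p = 0.00603). Over the alternative runs the size of its log2 change ran from 0.50 to 1.23, and its call was lost without either 3N array (changes of -1.12 and -1.17). Shroom1, H2bc6, Rsph9 and Abcb9 completed the 12 largest falls, with changes of -1.25, -1.25, -1.02 and -1.02. Each of these lost its call when the 3N array of experiment 2 was left out (adjusted p of 0.0629, 0.426, 0.246 and 0.0566), and H2bc6, Rsph9 and Abcb9 also without the 2N array of experiment 1 (0.142, 0.0579 and 0.068). H2bc6 lost it further without the 2N array of experiment 2 (0.106), and Abcb9 without any 1 of the 5 arrays (0.0527 to 0.242).

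Among 25 CDK inhibitor, quiescence and growth arrest genes 1 rose and 2 fell. Cdkn2d, the inhibitor p19, rose 2.15-fold (adjusted p = 0.00176). Mxd4, an antagonist of Myc, and Trp53inp1, a p53 target, changed by -0.68 and -0.53, and the calls were lost without either 3N array (adjusted p of 0.101 and 0.0905 for Mxd4, and of 0.133 and 0.206 for Trp53inp1) and without the 2N array of experiment 1 (0.0558 and 0.0846). That of Trp53inp1 was also lost without the 2N array of experiment 3 (0.108).

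A small set of interferon response genes was higher in 3N cells, 4 of 21 tested with none lower (median 0.11). Cxcl10, a chemokine, was at 5.75, 5.71 and 5.54 in 2N cells, where 2 of 3 arrays detected it, and at 7.04 and 7.13 in 3N cells (2.67-fold, adjusted p = 3.3e-06). Its 2N values lay near the detection limit, and over the alternative runs its log2 change ran from 0.66 to 1.47. Rsad2, or viperin, was at 7.51, 7.83 and 7.48 in 2N cells and at 8.94 and 8.98 in 3N cells (2.55-fold, adjusted p = 2.25e-05). In both fractions the arrays lay close together and did not overlap. Oasl1 (2.14-fold) and Ifit2 (1.59-fold) passed with adjusted p of 0.0436 and 0.0186, and lost their calls without either 3N array (0.27 and 0.138 for Oasl1, 0.114 and 0.136 for Ifit2) and without the 2N array of experiment 3 (0.104 and 0.0629). Oasl1 also lost it without the 2N array of experiment 1 (0.138), and its other probe, at 0.48, did not pass. With the experiment as a block 6 interferon genes rose and Ifitm3 fell (-0.31, adjusted p = 0.0497). In control cells Cxcl10 was also higher in 3N than in 2N cells (0.97 ± 0.12, adjusted p = 0.000226), and so was Rsad2 (0.80 ± 0.14, adjusted p = 0.00348).

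No gene passed among 25 myogenic and sarcomere genes, 19 immediate early genes, 53 ribosomal protein genes and 10 housekeeping genes, and their median log2 changes lay between -0.06 and 0.03. With the experiment as a block 3 myogenic and sarcomere genes passed, and these were Eya1 (0.44, adjusted p = 0.0497), Myl1 (-0.73, 0.0347) and Tnnt1 (-0.41, 0.0293), and none of the other 3 lists had a call. Acta1, the skeletal muscle actin, changed by 0.39 ± 0.28 (adjusted p = 0.512), Myog, the myogenic regulator, by -0.24 ± 0.25 (adjusted p = 0.68) and Gapdh by 0.02 ± 0.09 (adjusted p = 0.926). Actb and Car3, carbonic anhydrase 3, changed by 0.14 and 0.06. Of 29 extracellular matrix genes 1 fell, the collagen gene Col6a1 (11.75, 11.72 and 11.74 in 2N cells, 11.23 and 11.10 in 3N cells, adjusted p = 0.0136), and its call was lost with median scaling (0.0603) and without the 3N array of experiment 2 (0.173).

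**Figure D4:**
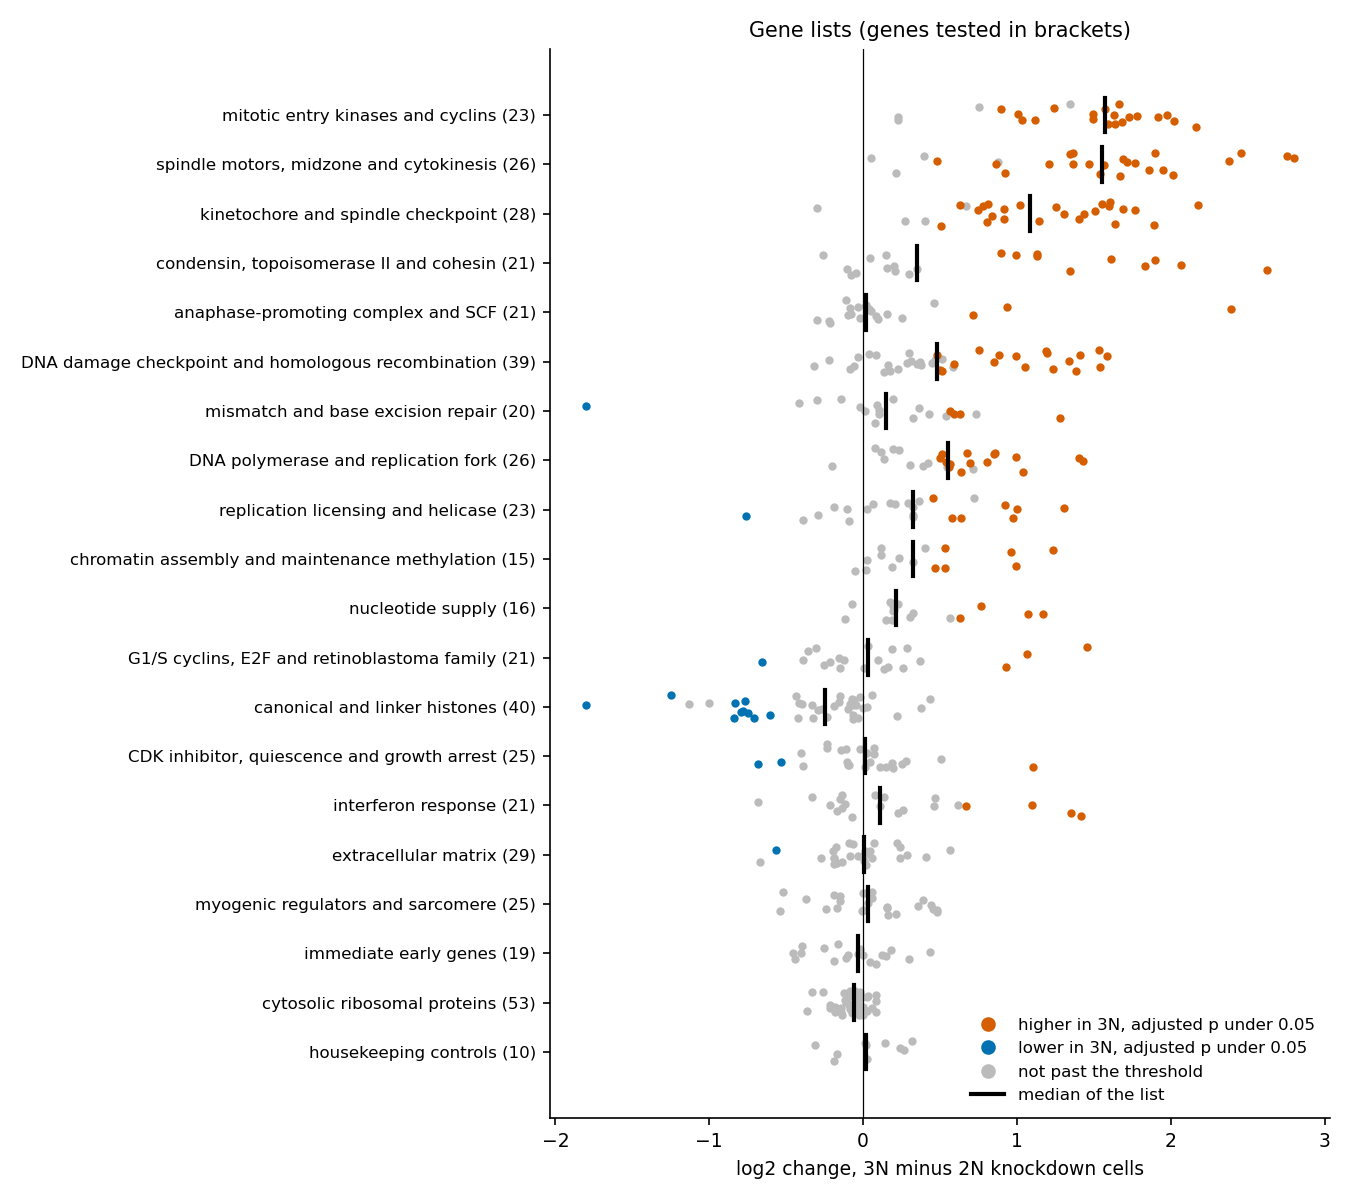
Log2 change between 3N and 2N knockdown cells (x axis) for each tested gene of 20 lists, with genes past the threshold in orange (higher) or blue (lower) and a bar at the median of each list. The mitotic lists have medians of 1.57, 1.56 and 1.08, the fork list 0.55 and the histone list -0.25.

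The same contrast in control cells, which shares no array with the one in knockdown cells, asked which of these differences depend on the knockdown. There 304 genes rose (3.27%) and 144 fell (1.55%) from 2N to 3N. The 224 genes higher in both made up 63.82% of the knockdown list and 73.68% of the control list, and the 63 lower in both 29.03% and 43.75%. No gene was called in opposite directions. Over the 729 genes called in either, the log2 changes correlated at r = 0.91. These genes were picked by the same values, which can raise r, and genes are not independent replicates. No gene (0%) passed the test of the difference between the 2 contrasts in limma, where the lowest adjusted p was 0.243. In that test 353 of all 9306 genes had an unadjusted p under 0.05. The median SE of that difference was 0.22, so that only differences well above it could pass.

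The lowest p belonged to Ccne2, which in control cells was at 9.99, 10.09 and 9.98 on the 2N arrays and at 8.31 and 8.28 on the 3N arrays. Its fall was thus larger than in knockdown cells, where the 2N level was lower and the 3N level higher than in control cells. In control cells Ccne2 changed by -1.72 ± 0.12 and in knockdown cells by -0.65 ± 0.12, a difference in limma of 1.06 ± 0.17 (adjusted p = 0.243), seen in both experiments (-1.67 and -1.80 in control cells, -0.63 and -0.57 in knockdown cells). With the experiment number as a block it was the 1 gene that passed (adjusted p = 0.0494). Next came Sec16b, which changed by 0.55 ± 0.09 in control and by -0.04 ± 0.09 in knockdown cells (adjusted p of the difference 0.862), and Ptprv, which was below background on both knockdown 3N arrays and at least 1.32-fold lower than in 2N cells. The fall of Ptprv lost its call without background correction (adjusted p = 0.0574), with the authors' normalized values (0.0575) and without the 3N array of experiment 1 (0.0645).

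Some other genes of the start of S phase, with differences among the larger of their lists, went in the same direction as Ccne2 without passing. Cdc6 changed by -1.56 ± 0.15 in control and by -0.76 ± 0.15 in knockdown cells, and Mcm2 by -0.46 ± 0.09 and 0.03 ± 0.09. Rrm2 changed by 0.02 ± 0.12 in control and by 0.77 ± 0.12 in knockdown cells, and Cdc45 by 0.52 ± 0.12 and 1.31 ± 0.12. The unadjusted p of the difference was 0.00264, 0.00184, 0.000607 and 0.000583, and no adjusted p was under 0.862. With the block the difference was 0.48 for Mcm2 and ran from 0.07 (Mcm4) to 0.38 (Mcm3) for the other ring subunits. In both experiments the 3N minus 2N difference was larger in knockdown than in control cells for 25 of the 26 fork genes and 16 of the 23 licensing genes, against 26.4% of all genes tested. For mitotic entry, kinetochore and spindle genes it was 60.9%, 64.3% and 69.2%. The counts come from 2 experiments and members of a list move together, so they describe these arrays and are no test. The fork genes had a median knockdown minus control difference of -0.19 at 2N and of 0.11 at 3N.

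**Figure D5:**
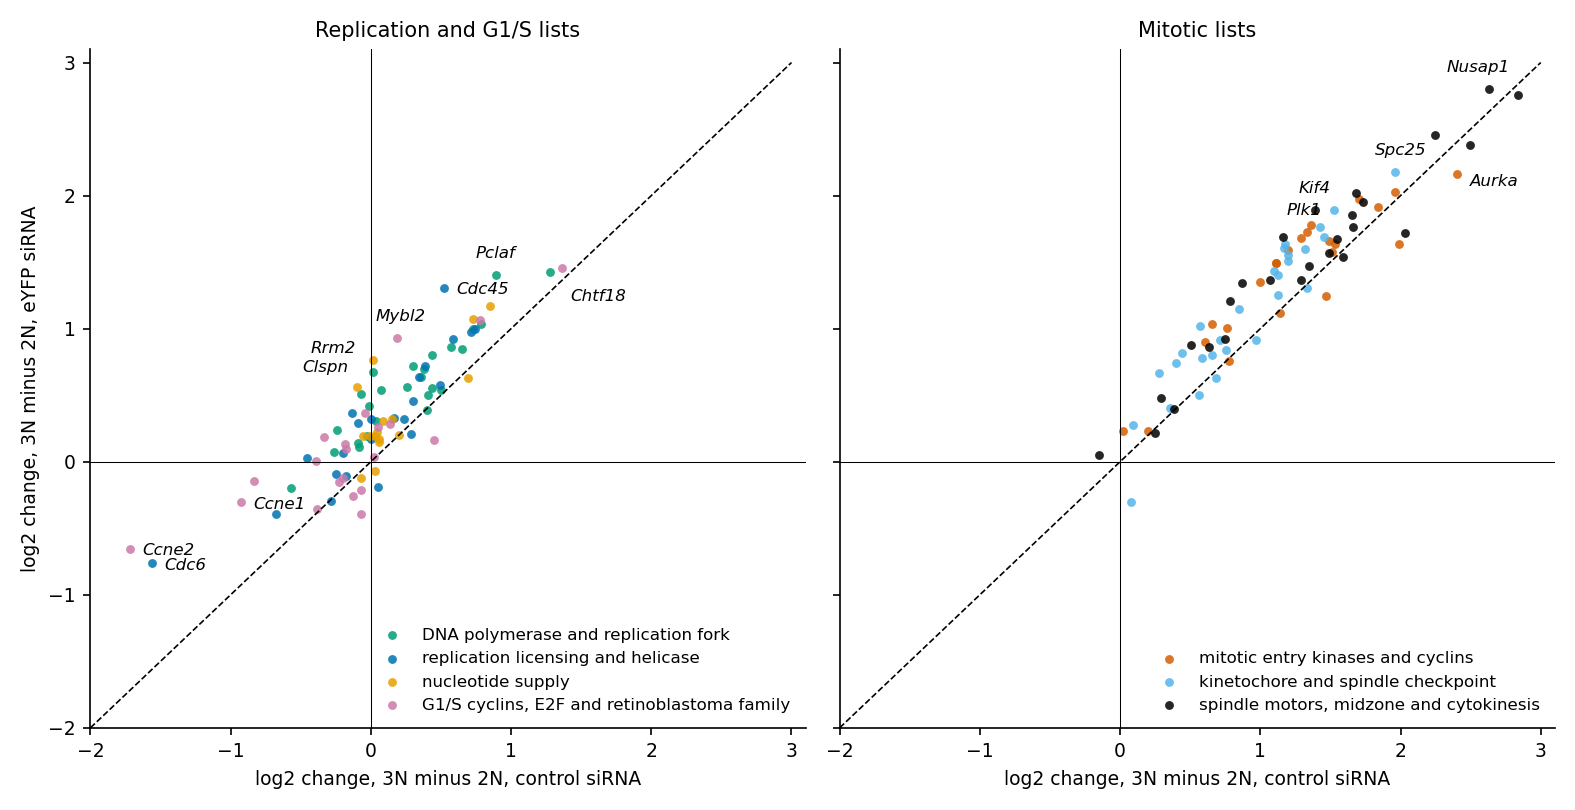
Log2 change between 3N and 2N cells with the control siRNA (x axis) and with the eYFP siRNA (y axis) for tested genes of the replication and G1/S lists (left) and the mitotic lists (right), with a dashed line where both are equal. Ccne2, Cdc6, Rrm2 and Cdc45 lie above the line, and no single gene passed the test of the difference without a block.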

How the data were processed

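RNA of sorted cells was amplified with the Ambion MessageAmp Premier kit and hybridised to Illumina MouseRef-8 v2 arrays, 1 array per sample. The authors deposited probe signals from GenomeStudio 2010.1 (Gene Expression module 1.6.0) as intensity (linear, not normalized). The detection values deposited by the authors, a fraction, equal 1 minus the detection p. The authors' processed intensity values, used here as an alternative, differ by at most 0.0327 (log2) from the same signals after quantile normalization. No source used here gives a genome build for the probes. Precision is limited by how few arrays there are. Of 25697 probes 23978 name 1 gene, 0 several and 1719 none.

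Signals were background corrected with normexp from the detection values (offset 16), taken to log2 and quantile normalized over 16 arrays (limma 3.58.1, R 4.3.3). A probe was kept (13052 were) if 3 or more arrays had its detection p below 0.05, and each gene was read from its brightest probe. A linear model with 1 mean for each of 6 groups on all 16 arrays (10 residual and 3.9 prior degrees of freedom) gave the contrasts, with Benjamini-Hochberg adjustment over all genes and a threshold of 0.05. Errors are SE of this model unless called SD. Where a group was undetected on all its arrays, a bound against the detection limit stands in place of a fold. Such a bound holds for the main background correction only: without it the log2 change of Ptprv was -0.28. Where 1 array of the 3N group was left out, the lone array was assumed to vary like the other groups.

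The label's experiment number pairs the arrays: deviations of 3N and 2N knockdown arrays of the same experiment correlated at 0.395 and 0.35 (0.0218 to 0.412 between knockdown and control arrays), and the experiment as a block was an alternative, beside others of background, scaling, filter, probes, arrays and variance. The members and the 26 gene lists were chosen with earlier results of these data known, and the fit was tested on simulated data. The text names the 12 largest rises and falls that passed, agreed in both experiments and were above background throughout the higher group, up to 4 such members of each list, a set of genes named whatever their result, and the 3 lowest p of the difference. Markers of cell types and labels came from the lists. Foxm1, H4c8 and the genes named only for a call with the block stand outside this rule and were chosen after their values were seen. Mki67 was not analysed here. Promoter sequences are from RefSeq (GRCm38.p6).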

Additional observations from a re-analysis of the deposited data

Results flagged for a closer look

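Ccne2, which encodes an E-type cyclin, was the gene whose 3N minus 2N difference changed most clearly between knockdown and control cells. With the experiment as a block the test of the difference gave an adjusted p of 0.0494, the lowest of all genes, and without the block 0.243. In knockdown cells Ccne2 was lower in 3N than in 2N cells by a log2 change of -0.65 and in control cells by -1.72, in the same order in both experiments.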

How the results depend on the processing

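No called gene among those named reversed under any alternative run. Uncalled Pcna, Mcm2, Foxo1, Gapdh, Actb, Car3 and Sec16b changed sign in 1 or 2 of them. Of the 568 calls, 328 higher and 112 lower ones were shared with median scaling, which gave 114 lower genes. The replicate block gave 500 higher and 521 lower genes and shared 349 and 216 of the calls, and 1 gene passed the test of the difference. The 5 arrays alone gave 226 higher and 71 lower genes, and experiments 1 and 2 without a block 122 lower genes (381 and 270 with a block, chosen after seeing the data). Leaving out 1 array gave 192 to 328 higher and 36 to 186 lower genes: without the 3N array of experiment 1, 232 and 92, without that of experiment 2, 192 and 36, and without the 2N array of experiments 1 and 3, 98 and 133 lower genes. The test of the difference gave 0 genes under every alternative but the replicate block on all arrays, including each control array left out. The genes that fell changed less, with 14 of the 217 lower genes at a log2 change of -1 or beyond against 124 of the 351 higher genes at 1 or beyond, and dim genes such as H3c7, Tha1 and Ptprv lay near the detection limit. Ccna2, Mcm5 and the other genes given with a blocked adjusted p in the report passed with the block, which ended no call of a named gene. With it 3 licensing, 2 G1/S, 2 mismatch and base excision repair and 2 matrix genes fell. The cause of these shifts was not tested.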
